A study of Mus musculus with 6 samples.

Results

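The genes described here are 48 members of the transforming growth factor beta (TGF-beta) and bone morphogenetic protein (BMP) signalling system, chosen by gene symbol from a table of 44788 symbols. They comprise 3 TGF-beta ligands, 4 latent TGF-beta binding proteins, 11 BMP and GDF ligands, 3 inhibin and activin subunits, 3 TGF-beta receptors, 8 BMP and activin receptors, 6 Smad effectors, 7 secreted antagonists and 3 *Id* target genes. All 48 symbols were found in the table, 43 had enough reads to be tested, and 5 (*Gdf5*, *Gdf6*, *Gdf7*, *Smad9* and *Grem1*) did not.

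Bulk RNA sequencing was carried out on 3 wild-type (WT) and 3 *Mkx*-/- samples of tail tendon from mice of the C57BL/6 strain. *Mkx* encodes Mohawk, a homeobox transcription factor expressed in tendon cells, and the labels describe neither the mutant allele nor any treatment. The labels give an age of 3 weeks for every sample, whereas the study's text gives another age. The labels number the samples as replicates without saying whether each was a separate mouse, so the p-values measure the spread between these samples, which may be partly technical.

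TGF-beta is secreted in a latent form that latent TGF-beta binding proteins (LTBPs) anchor to the extracellular matrix, and it must be released before it can bind its receptors. BMPs and GDFs are related ligands that are held in check by secreted antagonists such as noggin and chordin. Both branches bring type I and type II receptors together, which phosphorylate Smad proteins, and both act in tendon, where TGF-beta drives formation of tendon cells and BMP ligands are better known for inducing cartilage and bone.

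The libraries held between 10835070 and 14160301 counts. *Col1a1*, *Col1a2* and *Sparc* together took 42.0% to 48.5% of the counts in WT and 28.3% to 34.8% in *Mkx*-/- libraries, so values are given as normalized CPM, the usual depth-scaled count unit after edgeR's TMM scaling. A count of 3 corresponded to 0.211 to 0.294 CPM. The tendon marker *Tnmd* had 11572 to 14621 counts in the 6 libraries, and *Scx*, a tendon transcription factor, had 220, 410 and 666 counts in WT and 212, 190 and 221 counts in *Mkx*-/- libraries. The library WT replicate 3 differed from the others in sex-linked transcripts, with 1 count of *Xist* against 1289 to 1866 and 301 counts of *Ddx3y* against 0. This is a male-type pattern, while the other 5 libraries, all 3 *Mkx*-/- libraries among them, had a female-type pattern. The labels give no sex, and its part in the differences was not tested. The calls that were lost without WT replicate 3 are named below. The targeted gene *Mkx* had 144, 136 and 135 CPM in the WT libraries and 56.8, 41.4 and 38.9 CPM in the *Mkx*-/- libraries, which edgeR fitted as -1.60 on the log2 scale with an adjusted p of 0.00183. Its reads were thus lower but not absent in the mutant libraries.

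Of the 43 tested genes, 4 passed edgeR's quasi-likelihood test at an adjusted p under 0.05, 1 of them higher (*Ltbp2*) and 3 lower (*Ltbp1*, *Bmp3* and *Bmpr1b*) in *Mkx*-/- tendons. Over all 14550 genes tested, 5.44% passed, 3.18% in the higher and 2.26% in the lower direction, against 9.30% of these genes. With a change over 2-fold as a further condition, *Ltbp2* was the only member left, where 1.89% of all genes passed as higher and 1.33% as lower. At an unadjusted p under 0.05, 10 members were higher and 10 lower, where 12.5% and 10.1% of all genes were. The median log2 fold change of the members was 0.02 and that of all genes was -0.0037, with 22 members above 0 and 21 below, so that the set as a whole had no common direction. In 46.5% of the 43 genes the 3 WT and the 3 *Mkx*-/- values did not overlap, 11 higher and 9 lower, where 28.2% of all genes tested did not overlap, 14.6% higher and 13.6% lower. With DESeq2, the tool the study used, 8 of 44 members passed where 8.45% of all its tested genes did: 3 were higher (4.87% of all genes), with *Bmp4* and *Fstl1* added, and 5 were lower (3.58% of all genes), with *Tgfbr1* and *Smad5* added. With scaling to the library totals only, the all-gene median shifted up by 0.25 on the log2 scale, and 9 members passed as higher and 3 as lower, against 1 and 3 with TMM. The reads came from whole tissue, in which fewer cells of a type and less RNA per cell cannot be told apart.

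**Figure D1:**
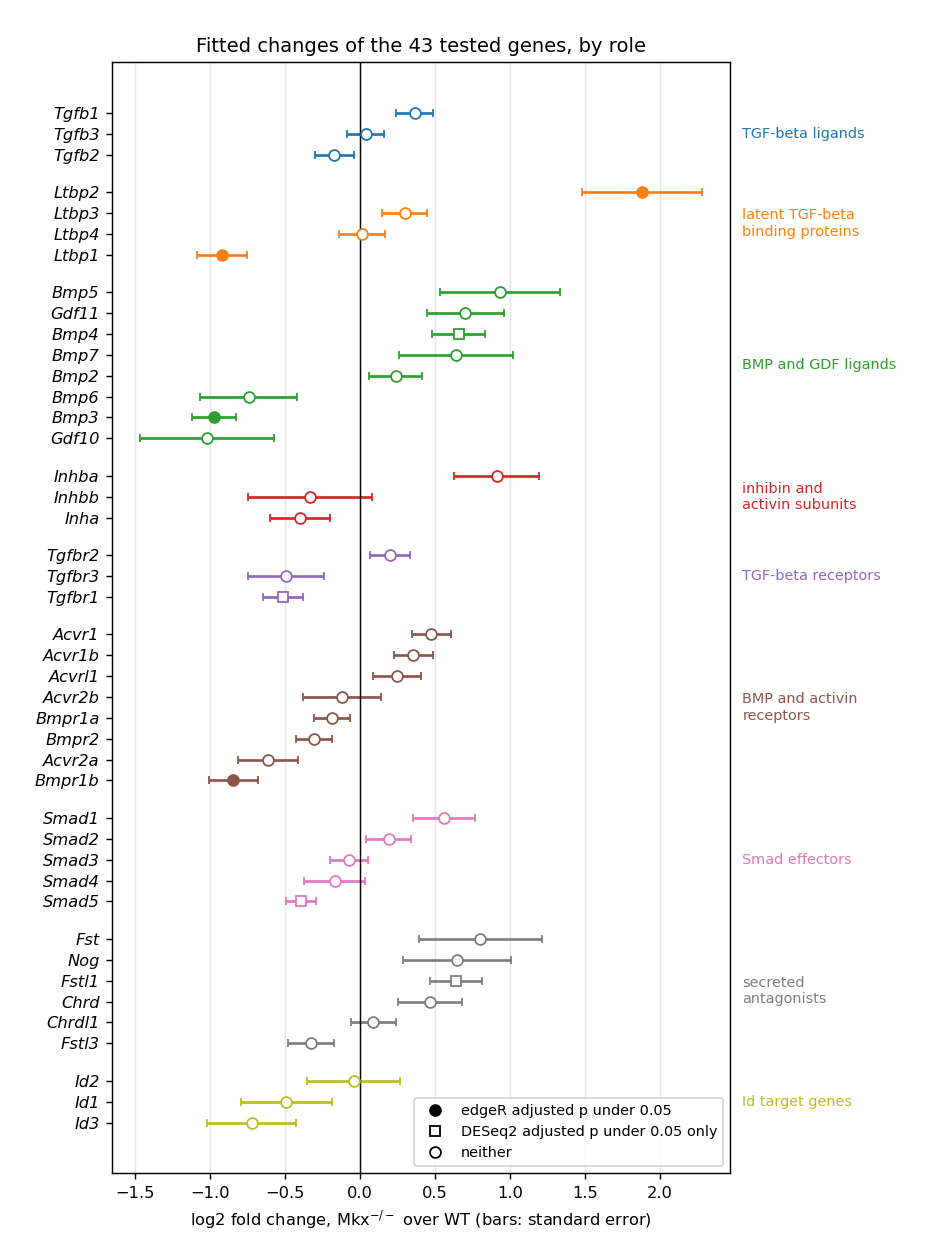
Log2 fold change (*Mkx*-/- over WT, x axis) of the 43 tested genes grouped by role, with bars for the standard error of the edgeR fit. Filled circles passed edgeR's threshold and open squares passed DESeq2's only; the filled points are *Ltbp2* at 1.88, *Bmpr1b* at -0.84, *Ltbp1* at -0.92 and *Bmp3* at -0.97.

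The TGF-beta ligands did not pass the test, and *Tgfb3* was by far the most abundant of them. *Tgfb3* encodes the isoform that, with *Tgfb2*, is known to be needed for tendon formation in the embryo. *Tgfb3* was measured at 232, 221 and 229 CPM in WT and 252, 239 and 209 CPM in *Mkx*-/- libraries, and edgeR's log2 fold change was 0.04 with a standard error of 0.12 (adjusted p = 0.895). The ranges overlapped, and the WT values differed by little. Per kilobase of exon, which allows levels of different genes to be compared, *Tgfb3* had 67.2 ± 1.78 CPM per kb (SD, n = 3) in WT, against 9.63 ± 0.664 for *Tgfb1* and 7.10 ± 0.424 for *Tgfb2*. The order of the last pair was the same in all libraries, and *Tgfb3* made up 79.9% to 80.2% of the summed ligand level per length in WT and 78.3% to 79.1% in *Mkx*-/- libraries. *Tgfb1*, the isoform found most widely in adult tissues, had 23.3 to 26.5 CPM in WT and 29.1 to 34.3 CPM in *Mkx*-/- libraries without overlap, with a log2 fold change of 0.37 (adjusted p = 0.122, edgeR). *Tgfb2* overlapped between the groups, at 33.2 to 36.8 and 26.9 to 34.3 CPM.

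Among the LTBPs, *Ltbp2* rose and *Ltbp1* fell. *Ltbp1* encodes a carrier that binds the latent TGF-beta complex and ties it to fibrillin and fibronectin in the matrix. In mm9 it occupies chr17:75404908-75791852 (plus strand), with 10.7 kb of exon, and *Gm6276* overlaps it on the same strand. *Ltbp1* was measured at 141, 189 and 193 CPM in WT and 100, 77.1 and 98.9 CPM in *Mkx*-/- libraries. The lowest WT library, replicate 1, stayed above every mutant library. The log2 fold change was -0.92 (standard error 0.17, adjusted p = 0.0215, edgeR), or 1.89-fold lower. *Ltbp1* lost its call without WT replicate 2 (adjusted p = 0.0818), WT replicate 3 (0.0811), *Mkx*-/- replicate 2 (0.0767) or *Mkx*-/- replicate 3 (0.0608), and its value stayed below 0 in each of these fits.

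*Ltbp2* encodes an LTBP that associates with fibrillin microfibrils and, unlike the others, does not bind latent TGF-beta. In mm9 it occupies chr12:86124162-86217482 (minus strand), with 8.19 kb of exon, and *D030025P21Rik*, which overlaps it on the opposite strand, had at most 1 count in any library. *Ltbp2* was measured at 25.8, 15.5 and 8.41 CPM in WT and 55.8, 85.6 and 41.8 CPM in *Mkx*-/- libraries. The groups did not overlap, although the values spread over a wide range within each. The log2 fold change was 1.88 (standard error 0.40, adjusted p = 0.0351, edgeR), or 3.68-fold higher, the largest standard error among the 4 genes that passed. Under edgeR, the call was lost without WT replicate 2 (adjusted p = 0.126), WT replicate 3 (0.0882), *Mkx*-/- replicate 1 (0.0673) or *Mkx*-/- replicate 2 (0.0931) and in a robust fit (0.0659), with fitted changes of 1.55 to 2.36 over all 15 alternatives.

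The other LTBPs, *Ltbp3* and *Ltbp4*, did not pass. *Ltbp4*, a carrier mainly of latent TGF-beta1 that also takes part in elastic fibre assembly, was the most abundant LTBP by CPM, with 512, 428 and 372 in WT and 442, 471 and 414 in *Mkx*-/- libraries. Its groups overlapped, and edgeR's log2 fold change was 0.02 with a standard error of 0.15 (adjusted p = 0.971). *Ltbp3*, which is known from its role in bone, was separate between the groups by a narrow margin, at 293 to 360 CPM in WT and 361 to 452 CPM in *Mkx*-/-, but did not pass (adjusted p = 0.287, edgeR). Per length, *Ltbp4* (67.7 ± 10.9 CPM per kb, SD, n = 3) and *Ltbp3* (61.2 ± 7.03) did not differ beyond their spread in WT, followed by *Ltbp1* (16.3 ± 2.70) and *Ltbp2* (2.02 ± 1.07). In *Mkx*-/- libraries *Ltbp1* was at 8.61 ± 1.22 and *Ltbp2* at 7.45 ± 2.73 CPM per kb, which overlap. The share of *Ltbp1* in the summed LTBP level went from 8.67%-13.4% to 4.50%-6.26%, and that of *Ltbp2* from 0.763%-2.08% to 3.45%-6.53%.

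The stretches before the transcription starts of *Ltbp1* and *Ltbp2* are shown because the 2 paralogs moved in opposite directions. The sequences are from RefSeq on GRCm38.p6, a later build than that of the counts, cover the 250 bases before each start on the gene's strand, and are in lower case with CAGAC, the core letters of the Smad binding element, or its reverse complement GTCTG in capitals. *Ltbp1* has more than 1 start in RefSeq, and the counts per gene do not tell which was used. The windows are chr17:75005279-75005528 (plus strand) and chr17:75178531-75178780 (plus strand) for *Ltbp1* and chr12:84876492-84876741 (minus strand) for *Ltbp2*.
Ltbp1, upstream start: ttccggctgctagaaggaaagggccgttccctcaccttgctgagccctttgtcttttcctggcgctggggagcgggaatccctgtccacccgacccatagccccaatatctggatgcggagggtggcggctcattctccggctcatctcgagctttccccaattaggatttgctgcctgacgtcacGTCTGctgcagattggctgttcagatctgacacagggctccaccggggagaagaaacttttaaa
Ltbp1, downstream start: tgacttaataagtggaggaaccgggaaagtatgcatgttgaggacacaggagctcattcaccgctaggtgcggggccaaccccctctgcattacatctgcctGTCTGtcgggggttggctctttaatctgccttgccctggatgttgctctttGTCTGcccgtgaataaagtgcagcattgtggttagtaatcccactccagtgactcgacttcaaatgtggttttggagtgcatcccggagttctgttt
Ltbp2: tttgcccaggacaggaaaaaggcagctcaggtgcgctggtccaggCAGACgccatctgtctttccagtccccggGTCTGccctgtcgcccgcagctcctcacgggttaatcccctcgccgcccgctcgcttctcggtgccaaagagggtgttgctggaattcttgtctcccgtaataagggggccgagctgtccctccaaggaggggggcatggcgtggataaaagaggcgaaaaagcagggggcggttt
The *Ltbp1* windows held 1 match, 64 bases before the start, and 2 matches, the outer at 148 bases. The *Ltbp2* window also held 2 matches, the outer at 205 bases. Across 32851 promoters in the same table, 42.2% held CAGAC on either strand within 250 bases, so a match is common. The GC-rich letters GGCGCC, which read the same on both strands and occur in 9.59% of promoters, were in none of these 3 windows. The motifs can overlap by at most 1 base. A match of letters is not a measured binding site.

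Among the BMP and GDF ligands, *Bmp3* fell, and *Bmp4* passed as higher by DESeq2 but not by edgeR. *Bmp3* encodes a ligand known for opposing the bone-forming activity of other BMPs. In mm9 it occupies chr5:99283458-99309979 (plus strand), with no overlapping gene. *Bmp3* was measured at 51.9, 58.2 and 65.8 CPM in WT and 29.3, 26.3 and 34.1 CPM in *Mkx*-/- libraries. Every mutant library lay well below every WT library. The log2 fold change was -0.97 (standard error 0.15, adjusted p = 0.0102, edgeR), or 1.96-fold lower. *Bmp3* was the only one of the 4 genes to pass in all 15 alternatives, with a highest adjusted p of 0.0424 without WT replicate 2.

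*Bmp4*, an inducer of cartilage and bone and the most abundant BMP ligand here by mean CPM and per length, was measured at 69.7, 58.1 and 55.6 CPM in WT and 104, 112 and 73.6 CPM in *Mkx*-/- libraries. The groups did not overlap, with *Mkx*-/- replicate 3 close to WT replicate 1. Its log2 fold change was 0.66 (standard error 0.18) with an adjusted p of 0.0722 by edgeR and 0.0212 by DESeq2. *Gm15217* and *Gm15222* overlap *Bmp4* on the opposite strand, and the sources used here do not state how the counting treated strand. *Bmp4* also passed edgeR's test in 4 alternatives, among them those without WT replicate 1 (adjusted p = 0.0449) and without *Mkx*-/- replicate 3 (0.0429).

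Within a library, the ratio of counts of 2 genes does not depend on scaling, and 3 such pairs were drawn after their values had been seen. The ratio of *Bmp4* to *Bmp3* counts was 1.34, 0.998 and 0.844 in WT and 3.54, 4.24 and 2.16 in *Mkx*-/- libraries. The ratio of *Ltbp2* to *Ltbp1* counts was 0.183, 0.0822 and 0.0437 in WT and 0.557, 1.11 and 0.422 in *Mkx*-/- libraries. Neither pair overlapped between the groups, which was fixed in advance because each gene of a pair was itself separate, in opposite directions. In level per length, *Bmp4* made up 39.8% to 53.5% of the BMP and GDF ligands in WT and 55.1% to 73.3% in *Mkx*-/- libraries, while *Bmp3* made up 28.4% to 33.7% and 12.3% to 18.2%.

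**Figure D2:**
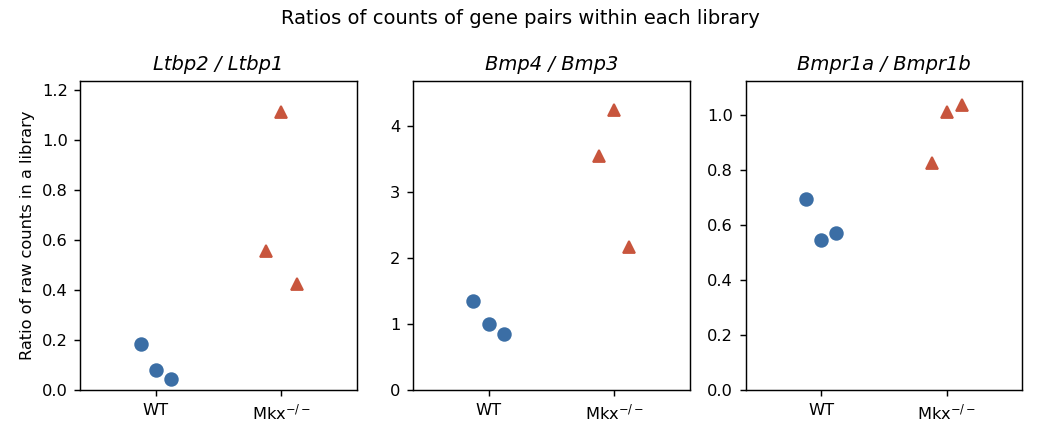
Ratio of raw counts (y axis, from 0) of 3 gene pairs within each library, WT as circles and *Mkx*-/- as triangles, 3 libraries each. In each panel the *Mkx*-/- libraries sit above the WT libraries, for *Ltbp2* over *Ltbp1* at 0.422 to 1.11 against 0.0437 to 0.183. For *Ltbp2* over *Ltbp1* and *Bmp4* over *Bmp3* this follows from the separate values of the single genes. In the pair *Bmpr1a* over *Bmpr1b*, *Bmpr1b* was itself separate, at 79.7 to 108 CPM in WT and 45.9 to 61.2 CPM in *Mkx*-/- libraries, and *Bmpr1a* overlapped.

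The other BMP and GDF ligands did not pass edgeR's test. *Gdf10*, a close relative of *Bmp3*, had 14.7, 14.8 and 18.6 CPM in WT and 5.40, 3.58 and 14.8 CPM in *Mkx*-/- libraries, with a log2 fold change of -1.02 (adjusted p = 0.221, edgeR). Its *Mkx*-/- replicate 3 lay within the WT range, and without that library *Gdf10* passed. *Bmp6*, a bone-inducing ligand, had 11.2 to 25.3 CPM in WT and 9.62 to 16.1 CPM in *Mkx*-/- libraries (log2 fold change -0.74, adjusted p = 0.218, edgeR), and *Bmp2*, another bone inducer, 7.25 to 10.5 and 9.34 to 11 CPM. *Gdf11*, which acts in patterning of the body axis, was low but did not overlap, at 2.0 to 2.75 CPM in WT and 3.02 to 4.44 CPM in *Mkx*-/- libraries (adjusted p = 0.150, edgeR). *Bmp5* had 1.18 to 1.52 CPM in WT and 1.37 to 3.88 CPM in *Mkx*-/- libraries (log2 fold change 0.93, adjusted p = 0.210, edgeR). *Bmp7* had 2.21 to 3.93 and 2.47 to 6.58 CPM (0.64, adjusted p = 0.365, edgeR). Both overlapped between groups. The level per length of the whole role thus rested on *Bmp4* and *Bmp3*.

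*Gdf5*, *Gdf6* and *Gdf7*, ligands known from joint and tendon development, had too few reads for the test. *Gdf6* had 1 count in each WT library and 4, 10 and 6 counts in the *Mkx*-/- libraries. Scaled for library size, the ratio of summed counts was 6.24 (95% interval 1.85 to 32.8, counting error only), and with a filter of 1 count in any library edgeR gave an adjusted p of 0.102. *Gdf5* had 0, 1 and 5 counts in WT and 7, 4 and 14 counts in *Mkx*-/- libraries, a ratio of 3.90 (95% interval 1.56 to 11.6, counting error only). Its groups overlapped, and with the same filter of 1 count edgeR gave an adjusted p of 0.248. *Gdf7* had 3 counts in all WT and 6 in all *Mkx*-/- libraries (ratio 1.87, 95% interval 0.400 to 11.6). These ligands were therefore near the detection limit in tail tendons of both genotypes.

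None of the inhibin and activin subunits passed. *Inhbb*, the activin B subunit and the most abundant of them by mean CPM, though below *Inha* in 4 of the 6 libraries, had 15, 9.81 and 5.29 CPM in WT and 6.32, 12.1 and 5.39 CPM in *Mkx*-/- libraries. These values overlapped, and edgeR's log2 fold change was -0.33 with a standard error of 0.41 (adjusted p = 0.687). Per length, *Inha* was above *Inhbb* in every library, at 49.3% to 70.2% of the summed level of the subunits against 14.6% to 35.1%. *Inhba*, the activin A subunit, had 2.05 to 3.52 CPM in WT and 3.86 to 5.59 CPM in *Mkx*-/- libraries, a log2 fold change of 0.91 (adjusted p = 0.101, edgeR). *Inha*, the inhibin alpha subunit, went the other way, at 8.09 to 12 and 6.74 to 7.69 CPM (adjusted p = 0.285, edgeR). Neither *Inhba* nor *Inha* overlapped between the groups.

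**Figure D3:**
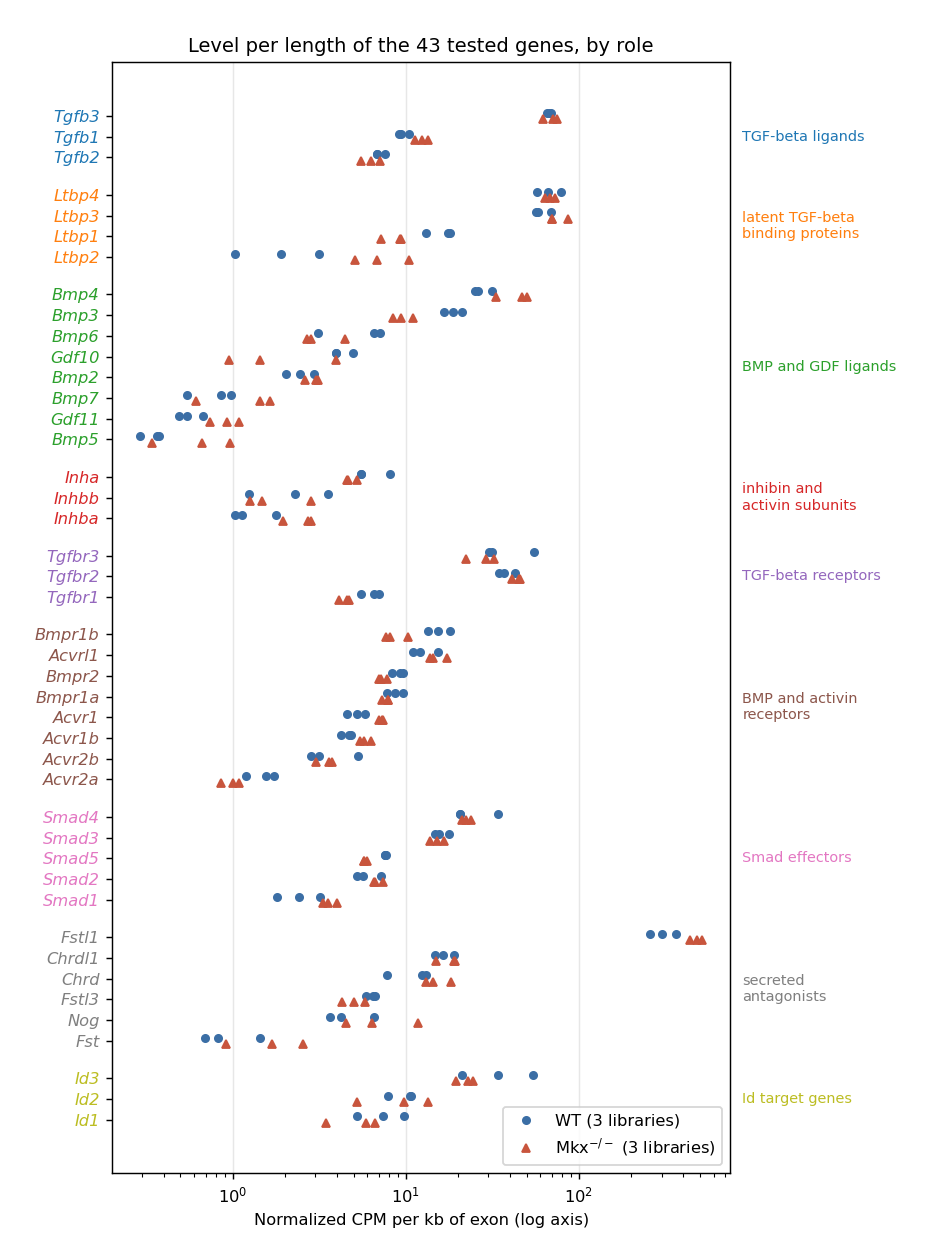
Level of the 43 tested genes in normalized CPM per kb of exon (x axis, log scale), grouped by role and ordered by WT level, with WT libraries as circles and *Mkx*-/- libraries as triangles. *Fstl1* stands above all others at 307 CPM per kb on average in WT, and *Tgfb3*, *Ltbp4* and *Ltbp3* follow at 61.2 to 67.7.

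The TGF-beta receptors did not pass edgeR's test, and *Tgfbr1* passed as lower by DESeq2 only. *Tgfbr2*, the type II receptor that binds the ligand first, was the most abundant by CPM, with 298, 347 and 281 in WT and 367, 334 and 363 in *Mkx*-/- libraries. The ranges overlapped, and edgeR's log2 fold change was 0.20 with a standard error of 0.13 (adjusted p = 0.419). *Tgfbr1*, the type I receptor that *Tgfbr2* activates, is named here because of its DESeq2 result and was chosen after its values were seen. *Tgfbr1* had 36.0, 42.8 and 45.7 CPM in WT and 30.8, 26.8 and 29.7 CPM in *Mkx*-/- libraries. The groups did not overlap, and the log2 fold change was -0.51 (standard error 0.13), with an adjusted p of 0.0660 by edgeR and 0.0343 by DESeq2. *Tgfbr3*, the co-receptor betaglycan, had 362 CPM in WT replicate 1 against 145 to 211 CPM in the other 5 libraries, and it did not pass (log2 fold change -0.49, adjusted p = 0.296, edgeR). Per length in WT, *Tgfbr3* (39.1 ± 14 CPM per kb, SD, n = 3) and *Tgfbr2* (38.1 ± 4.24) did not differ beyond their spread, and *Tgfbr1* was at 6.35 ± 0.759.

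Of the BMP and activin receptors, *Bmpr1b* fell and the other 7 did not pass. *Bmpr1b* encodes a type I receptor for BMPs and GDFs that is prominent in cartilage-forming tissue. In mm9 it occupies chr3:141500100-141832389 (minus strand), with no overlapping gene. *Bmpr1b* was measured at 79.7, 91.0 and 108 CPM in WT and 61.2, 45.9 and 48.4 CPM in *Mkx*-/- libraries. The groups were separate, with *Mkx*-/- replicate 1 nearest to the WT range. The log2 fold change was -0.84 (standard error 0.16, adjusted p = 0.0252, edgeR), or 1.79-fold lower. *Bmpr1b* lost its call without WT replicate 2 (adjusted p = 0.0846), WT replicate 3 (0.0911), *Mkx*-/- replicate 2 (0.0909) or *Mkx*-/- replicate 3 (0.0952), and stayed below 0 in each.

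The window before the outermost RefSeq start of *Bmpr1b* is shown because this receptor gene fell together with *Ltbp1*. It covers chr3:141982265-141982514 on the minus strand of GRCm38.p6, with the same capitals.
Bmpr1b: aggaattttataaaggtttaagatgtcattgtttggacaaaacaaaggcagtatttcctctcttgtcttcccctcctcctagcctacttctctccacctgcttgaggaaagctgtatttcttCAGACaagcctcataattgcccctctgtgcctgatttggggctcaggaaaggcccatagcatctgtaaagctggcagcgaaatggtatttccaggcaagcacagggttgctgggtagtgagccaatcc
This window held 1 CAGAC, 128 bases before the start, and no GGCGCC. RefSeq has further *Bmpr1b* starts. Of their windows, chr3:141931589-141931838 held 1 match, 245 bases before the start, and chr3:141931421-141931670 held none. The counts per gene do not tell which start was used.

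The other type I receptors had fitted changes on both sides of 0. *Bmpr1a*, the more widely expressed type I BMP receptor, had 49.8 to 61.6 CPM in WT and 46.3 to 50.4 CPM in *Mkx*-/- libraries, overlapping at a log2 fold change of -0.19 (adjusted p = 0.420, edgeR). The ratio of *Bmpr1a* to *Bmpr1b* counts was 0.547 to 0.695 in WT and 0.823 to 1.03 in *Mkx*-/- libraries, where *Bmpr1b* was itself separate between the groups. *Acvr1*, the type I receptor whose activating mutations cause heterotopic ossification in people, had 25.2, 22.1 and 28.1 CPM in WT and 35.4, 33.8 and 35.8 CPM in *Mkx*-/- libraries. These did not overlap, but the log2 fold change of 0.48 did not pass (standard error 0.13, adjusted p = 0.0708, edgeR, and 0.0624, DESeq2). *Acvr1b*, the activin type I receptor, had 13.8 to 15.8 CPM in WT and 17.9 to 20.7 CPM in *Mkx*-/- libraries without overlap (log2 fold change 0.36, adjusted p = 0.145, edgeR). *Acvrl1*, a type I receptor found mainly on endothelial cells, had 46.8 to 65.4 and 59.1 to 73.8 CPM (adjusted p = 0.402, edgeR).

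None of the type II receptors passed. *Bmpr2*, the main type II receptor for BMPs, had 29.2 to 33.6 CPM in WT and 24.5 to 27.3 CPM in *Mkx*-/- libraries (log2 fold change -0.31, adjusted p = 0.170, edgeR). *Acvr2a*, shared by activins and BMPs, had 6.77 to 9.85 and 4.85 to 6.18 CPM (log2 fold change -0.61, adjusted p = 0.115, edgeR). Both were without overlap and did not pass, and *Acvr2b*, its close relative, overlapped at 4.97 to 9.30 and 5.31 to 6.53 CPM. In summed level per length over the 8 receptors, *Bmpr1b* held 22% to 29.0% in WT and 14.2% to 17.1% in *Mkx*-/- libraries, *Acvrl1* 17.5% to 25.4% and 25.1% to 28.8%, and *Acvr1* 7.58% to 9.32% and 12.2% to 13.4%.

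**Figure D4:**
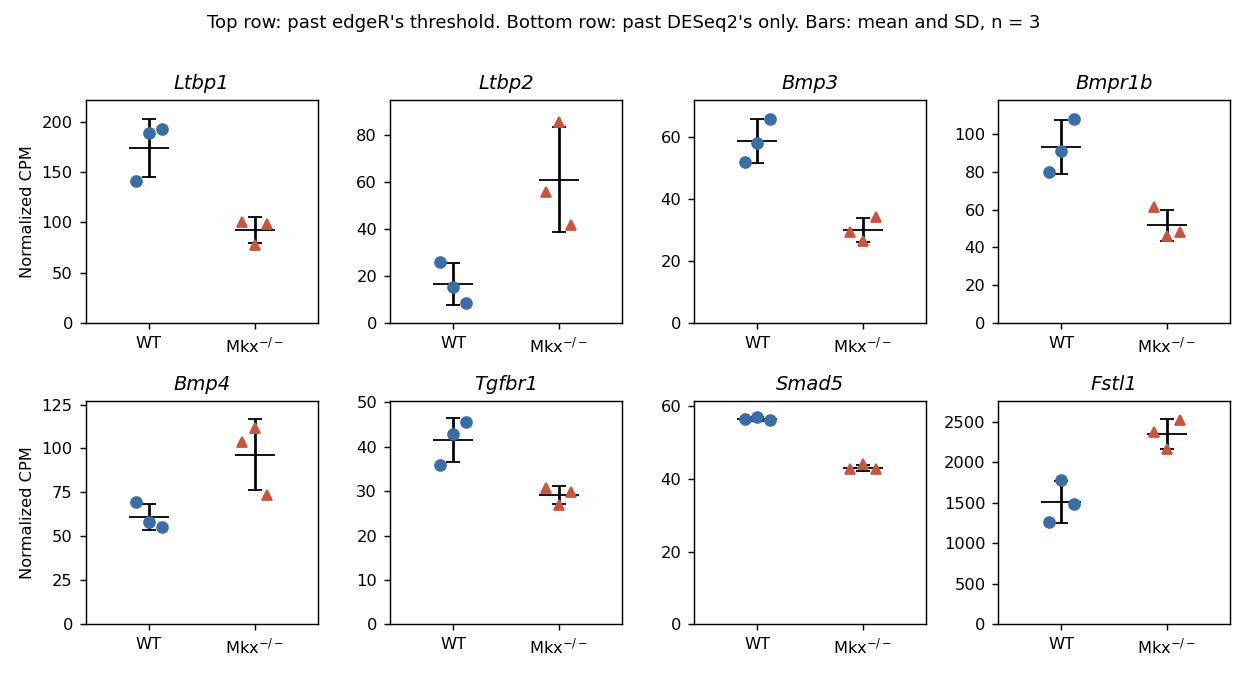
Normalized CPM (y axis, from 0) of 8 genes in each WT library (circles) and each *Mkx*-/- library (triangles), with the mean and SD of 3 libraries. The top row (*Ltbp1*, *Ltbp2*, *Bmp3*, *Bmpr1b*) passed edgeR's test and the bottom row (*Bmp4*, *Tgfbr1*, *Smad5*, *Fstl1*) DESeq2's only; in all 8 panels the groups are separate.

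The Smad effectors did not pass edgeR's test. *Smad4*, the partner shared by both branches, was the most abundant by CPM, with 126, 76.6 and 76.6 in WT and 82.4, 88.1 and 78 in *Mkx*-/- libraries. Only WT replicate 1 stood apart, and the log2 fold change was -0.17 (standard error 0.20, adjusted p = 0.677, edgeR). *Smad2* and *Smad3*, which carry the TGF-beta and activin signal, overlapped between groups, at 18.5 to 25.4 and 23.3 to 26.4 CPM and at 81.9 to 98.3 and 76.4 to 92.7 CPM. The Smads of the BMP branch had fitted changes of opposite sign. *Smad5* was named after its values were seen and had 56.5, 57.1 and 56.1 CPM in WT and 42.6, 44.1 and 42.6 CPM in *Mkx*-/- libraries, where the log2 fold change was -0.39 with a standard error of 0.10 (adjusted p = 0.0678 by edgeR and 0.0470 by DESeq2). The spread of *Smad5* within each group was far smaller than the gap between them, though a spread taken from 3 libraries is itself imprecise. *Smad5* passed in only 1 of 15 alternatives. *Smad1* had 10.5 to 18.6 CPM in WT and 19.5 to 23.4 CPM in *Mkx*-/- libraries (log2 fold change 0.56, adjusted p = 0.151, edgeR), and *Smad9* had 32 counts in all WT and 26 in all *Mkx*-/- libraries (ratio 0.761, 95% interval 0.436 to 1.32).

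Among the secreted antagonists, *Fstl1* was the most abundant of all 48 genes and passed as higher by DESeq2 but not by edgeR. *Fstl1* encodes a secreted glycoprotein of the follistatin family that is reported to modulate BMP signalling. It had 1259, 1779 and 1490 CPM in WT and 2373, 2161 and 2525 CPM in *Mkx*-/- libraries. The groups did not overlap, and the log2 fold change was 0.64 (standard error 0.17, 1.56-fold higher) with an adjusted p of 0.0731 by edgeR and 0.00350 by DESeq2. *Gm15724* overlaps *Fstl1* on the opposite strand. *Fstl1* made up 87.1% to 90.2% of the summed antagonist level per length in WT and 89.5% to 92.5% in *Mkx*-/- libraries.

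The classical BMP and activin antagonists did not pass in either direction. *Chrd*, chordin, had 45.5 to 76.2 CPM in WT and 76.7 to 107 CPM in *Mkx*-/- libraries, separate by a narrow margin (log2 fold change 0.47, adjusted p = 0.242, edgeR). *Chrdl1*, its relative, overlapped at 99.6 to 129 and 102 to 131 CPM. *Nog*, noggin, had 7.05 to 12.6 and 8.64 to 22.5 CPM (log2 fold change 0.64, adjusted p = 0.336, edgeR). *Fst* and *Fstl3*, which bind activins, had log2 fold changes of 0.80 and -0.33 (adjusted p = 0.294 and 0.253, edgeR), *Fst* at 1.86 to 3.85 and 2.47 to 6.82 CPM and *Fstl3* at 14.3 to 16.3 and 10.4 to 14.2 CPM. *Grem1*, gremlin, had 1 count in 1 *Mkx*-/- library and 0 in the other 5, so no change could be measured.

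The *Id* genes, direct targets of BMP signalling, did not pass, and all 3 fitted changes lay below 0. *Id3* had 97.4, 61.3 and 37.9 CPM in WT and 34.7, 43.6 and 41.0 CPM in *Mkx*-/- libraries. The WT libraries spread over a wide range, which took in *Mkx*-/- replicates 2 and 3, and the log2 fold change of -0.72 did not pass (standard error 0.30, adjusted p = 0.197, edgeR). *Id1* had 6.09 to 11.3 and 4.0 to 7.69 CPM (log2 fold change -0.49), and *Id2* had 10.1 to 13.6 and 6.60 to 17.1 CPM (log2 fold change -0.04).

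The other genes of the pathway were counted in 7 lists. Over all genes tested, edgeR passed 3.18% as higher and 2.26% as lower. Of 11 tested secreted antagonists and modulators outside the 48, 5 passed as higher and 0 as lower, with a median log2 fold change of 0.57. *Bgn*, biglycan, a matrix proteoglycan that binds TGF-beta, had 964 to 1268 CPM in WT and 4358 to 5175 CPM in *Mkx*-/- libraries (log2 fold change 2.14, adjusted p = 0.00115, edgeR). *Nbl1*, a BMP antagonist of the DAN family, rose by a log2 fold change of 1.40 (adjusted p = 0.0157, edgeR), *Aspn*, asporin, by 0.96 (0.0140), and *Twsg1*, which binds chordin and BMPs, by 0.57 (0.0252). Of 7 other receptors and co-receptors, 1 passed in each direction. *Bambi*, a decoy receptor without a kinase, had 63.7, 67.7 and 78.3 CPM in WT and 21.9, 16.7 and 18.9 CPM in *Mkx*-/- libraries, a log2 fold change of -1.87 (adjusted p = 0.000878, edgeR).

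Of 20 further TGF-beta response genes, 6 passed as higher and 1 as lower by edgeR, with a median log2 fold change of 0.60. DESeq2 passed 7 as higher and 4 as lower, where it passed 4.87% and 3.58% of all genes. Their summed level, which includes *Col1a1* and *Col1a2*, was 366624 to 509489 CPM in WT. In *Mkx*-/- libraries it was lower without overlap, at 230787 to 320245 CPM. *Fn1*, fibronectin (1.53, adjusted p = 0.00173, edgeR), and *Postn*, periostin (1.49, adjusted p = 0.0165, edgeR), rose. *Lox*, the collagen crosslinking enzyme, fell, with 3234 to 4566 CPM in WT and 1105 to 1710 CPM in *Mkx*-/- libraries (log2 fold change -1.41, adjusted p = 0.0122, edgeR). Of the 20 fitted changes, 14 lay above 0 and 6 below. Of 11 further BMP response genes none passed edgeR's test. At an unadjusted p under 0.05, 4 were higher and 1 lower, where 12.5% and 10.1% of all genes were. DESeq2 passed 2 as higher, where it passed 4.87% of all genes. The smallest p belonged to *Id4*, at 0.240 to 0.785 CPM in WT and 1.10 to 3.01 CPM in *Mkx*-/- libraries (log2 fold change 2.08, adjusted p = 0.0599, edgeR).

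Of 11 intracellular inhibitors of Smad signalling, *Pmepa1* rose (log2 fold change 0.94, adjusted p = 0.0206, edgeR) and *Nedd4l*, a ubiquitin ligase, fell (-1.44, adjusted p = 0.0241, edgeR), and the other 9 did not pass. *Smad7*, the feedback inhibitor of the TGF-beta branch, had 4.33 to 5.04 CPM in WT and 5.55 to 7.53 CPM in *Mkx*-/- libraries (adjusted p = 0.177, edgeR). Of 19 activators and matrix stores of latent TGF-beta, 2 passed as higher and 0 as lower. They were *Mmp2*, a matrix metalloproteinase, with 279 to 328 CPM in WT and 612 to 709 CPM in *Mkx*-/- libraries (log2 fold change 1.12, adjusted p = 0.00380, edgeR), and *Fbn1*, fibrillin-1, to which LTBPs attach, with 1602 to 1895 and 2642 to 2953 CPM (0.65, adjusted p = 0.0458, edgeR). The median of this list was -0.03.

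**Figure D5:**
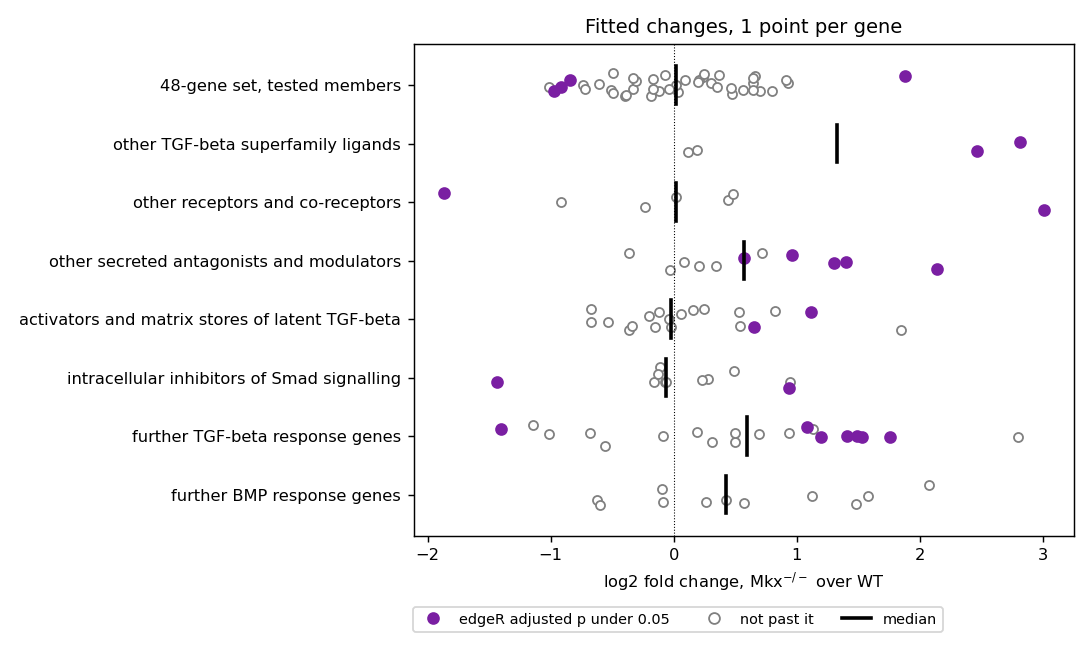
Log2 fold change (*Mkx*-/- over WT, x axis) of the 43 tested members and of 7 lists of other pathway genes, 1 point per gene, with filled points past edgeR's threshold and a bar at each median. The members' median lies at 0.02 and those of the other secreted modulators and the TGF-beta response genes at 0.57 and 0.60.

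Of 4 other superfamily ligands with enough reads, *Mstn*, myostatin, a product of skeletal muscle, and *Bmp15* passed as higher. *Mstn* had 0.294 to 0.481 CPM in WT and 1.01 to 3.86 CPM in *Mkx*-/- libraries (log2 fold change 2.81, adjusted p = 0.0294, edgeR), and *Bmp15* had 0.0981 to 0.236 and 0.824 to 1.19 CPM (2.46, adjusted p = 0.0277, edgeR, and 0.0569, DESeq2), both close to the level of 3 counts in WT. The co-receptor *Hfe2*, hemojuvelin, which is also made in skeletal muscle, had 0.0981 to 0.561 and 1.35 to 6.32 CPM (3.01, adjusted p = 0.0454, edgeR). Skeletal muscle markers moved with these genes: by edgeR 6 of 18 passed as higher and 0 as lower, where 3.18% and 2.26% of all genes did. At an unadjusted p under 0.05, 17 were higher (12.5% of all genes), and 11 passed as higher by DESeq2 (4.87% of all genes). None was at 0 in every library, and the summed level of these markers was 108 to 458 CPM in WT and 632 to 3286 CPM in *Mkx*-/- libraries. Their part in the result was not tested.

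Markers of tendon and of other cell types also differed. Over all genes tested by edgeR, 3.18% passed as higher and 2.26% as lower, and 12.5% and 10.1% did at an unadjusted p under 0.05. DESeq2 passed 4.87% of all its tested genes as higher and 3.58% as lower. Of 10 tendon markers, 1 passed as higher (*Thbs4*) and 1 as lower (*Mkx*) by edgeR, and 1 as higher and 5 as lower by DESeq2, with a median log2 fold change of -0.55. Their sum, most of it *Col1a1* and *Col1a2*, was 382051 to 524758 CPM in WT and 244964 to 339683 CPM in *Mkx*-/- libraries, without overlap, and none was at 0 throughout. Of 15 endothelial markers, 2 passed as higher and 0 as lower by edgeR. At an unadjusted p under 0.05, 10 of them were higher and 0 lower, and 5 passed as higher by DESeq2. Their sum was 111 to 137 CPM in WT and 190 to 267 CPM in *Mkx*-/- libraries, with none at 0 throughout. Of 11 macrophage and leukocyte markers, 3 passed as lower, 10 were lower at an unadjusted p under 0.05, and 4 passed as lower by DESeq2. Their sums were 599 to 653 and 387 to 473 CPM, with none at 0 throughout. Of 8 tested chondrocyte markers (10 listed), 3 passed as higher by edgeR, and 5 were higher and 0 lower at an unadjusted p under 0.05. By DESeq2, 4 passed as higher. Their sums were 1306 to 1802 and 1948 to 2622 CPM, with *Matn1* at 0 throughout. None of 3 tested osteoblast and osteocyte markers (10 listed) passed by edgeR, with 2 higher at an unadjusted p under 0.05 and 1 by DESeq2, a median log2 fold change of 1.49 and sums of 4.02 to 6.57 and 7.80 to 8.4 CPM, which did not overlap. None of 10 Schwann cell markers passed by edgeR (8 were higher and 0 lower at an unadjusted p under 0.05, and 8 passed as higher by DESeq2), with sums of 8188 to 10818 and 12676 to 23466 CPM. None of 9 tested pericyte and smooth muscle markers (10 listed) passed by edgeR, with 3 higher at an unadjusted p under 0.05 and 1 by DESeq2, and *Mkx*-/- replicate 3 stood apart at a sum of 1113 CPM against 317 to 405 CPM in the other 5 libraries. Keratinocyte markers summed to 3.07 to 12.2 and 16.4 to 22 CPM, and adipocyte markers to 23.1 to 28.5 and 22.4 to 29.0 CPM. The part of these cell types in the values of *Ltbp1*, *Ltbp2*, *Bmp3*, *Bmpr1b* and *Bmp4* was not tested.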

How the data were processed

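Tail tendon RNA of 3 WT and 3 *Mkx*-/- samples was sequenced on the Ion Proton system. The authors removed adaptors and low-quality reads, aligned the rest to mm9 with MapSplice and deposited raw counts per gene symbol; the counting program, annotation and strand treatment are not given in the sources used here. All 6 columns matched the labels, and 0 were unmapped. In R 4.3.3, counts were filtered with filterByExpr, scaled by TMM and tested with edgeR 4.0.16's quasi-likelihood test (genotype only, two-sided, Benjamini-Hochberg adjustment over 14550 genes); passed means an adjusted p under 0.05. A standard error is the absolute log2 fold change divided by the square root of F. DESeq2 1.42.0, other scalings and filters, a robust fit, removal of muscle markers, a replicate block and each library left out were the alternatives. With 3 against 3 samples an exact permutation test cannot go below a two-sided p of 0.1, so none was used.

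Level per length is CPM per kb of union exon (GENCODE for mm9). Promoters came from RefSeq (GRCm38.p6; 34 of 48 members matched). Members, lists and alternatives were chosen with earlier results of these data known. Library values are given for members that passed, members over 2-fold without overlap and the most abundant tested member of each role by mean CPM, for the targeted gene, and, added after their values were seen, for *Tgfbr1*, *Smad5*, *Gdf10* and *Acvr1*; at most 4 genes of a pathway list, those with the smallest p, are named, with *Smad7* and the muscle-made *Hfe2* among them, and 1 that the rule names is not reported here. Chi-square per degree of freedom between replicates was 7.59 to 36.4, so replicate libraries differed by more than sampling noise. In WT it was 7.59 between replicates 2 and 3, but 34.8 and 36.4 between replicate 1 and each of them. Between *Mkx*-/- libraries it was 20.7 to 24.4. The biological coefficient of variation was 0.196. The edgeR script was tested on simulated data. Intervals cover counting error only.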

Additional observations from a re-analysis of the deposited data

How the results depend on the processing

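*Bmp3* kept its direction and its side of the threshold in all 15 alternatives, and *Ltbp1*, *Ltbp2* and *Bmpr1b* kept their direction in all 15 and their call in 10 each. Members passing as higher, 1 in the reported analysis, were 9 with library-size scaling, 3 with DESeq2, 3 with a filter of 1 count in any library, 0 in the robust fit and 0 to 3 with a library left out. Members passing as lower, 3 in the reported analysis, were 5 with DESeq2 and 1 to 5 with a library left out. Over 2-fold, those passing as higher were 2 with library-size scaling and 0 in the robust fit against 1, and 0 to 1 with a library left out; those passing as lower were 0 to 3 with a library left out against 0. Of all genes, 463 higher and 329 lower became 1358 and 197 with library-size scaling, 768 and 565 with DESeq2, 970 and 594 with the filter of 1 count, and 117 to 539 and 127 to 439 with a library left out. With a library left out, log2 fold changes changed sign for *Ltbp4* (-0.10 to 0.14, below 0 in 4 of 6 fits), *Tgfb3* (-0.042 to 0.11, below 0 without *Mkx*-/- replicate 1), *Inhbb* (-0.78 to 0.092, above 0 without WT replicate 1) and *Smad4* (-0.30 to 0.11, above 0 without WT replicate 1); *Smad4* was also at 0.062 with library-size scaling. None of these 4 genes passed in any of these fits. The labels give both groups the same replicate numbers, and deviations of same-numbered libraries correlated at 0.026, -0.21 and 0.30. Those of differently numbered libraries correlated at -0.39 to 0.40. With 3 libraries per group, these values cannot decide whether the numbers pair the samples. With the replicate block, 264 genes passed as higher and 170 as lower, and of the members 1 higher (*Ltbp2*) and 1 lower (*Bmp3*), with *Ltbp1* at an adjusted p of 0.0601 and *Bmpr1b* at 0.0708. The causes of these shifts were not tested, apart from library-size scaling, which moves the median of all genes by 0.25. Leaving out WT replicate 1 brought in *Bmp4*, *Smad1*, *Bmp6* and *Tgfbr1*, and leaving out *Mkx*-/- replicate 3 brought in *Bmp4* and *Gdf10*. Depth limits *Gdf5*, *Gdf6*, *Gdf7*, *Smad9* and *Grem1*, which had at most 16 counts in a library.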

Other observations

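The ratio of *Acvr1* to *Bmpr1b* counts, a further pair drawn after its values had been seen, was 0.316, 0.243 and 0.260 in WT and 0.579, 0.737 and 0.741 in *Mkx*-/- tendons, without overlap. This separation follows from the values of both genes, which were separate in opposite directions. Both genes encode type I receptors that carry BMP signals. *Inhba* made up 9.86% to 20.9% of the summed level per length of the inhibin and activin subunits in WT and 20.6% to 31.8% in *Mkx*-/- tendons, where the ranges overlapped.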
